A study of Mus musculus with 9 samples.

Results

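The genes of Mediator and of RNA polymerase II (Pol II) were examined in C127 cells, a mouse mammary epithelial line, by asking whether non-methylated islands (NMIs) lay at their transcription start sites (TSSs), how wide these were and which other genes started in them. The genes were taken by symbol from the protein-coding genes of the GENCODE M21 annotation. All symbols of Med followed by a number, with or without a closing l, and the symbols Polr2a to Polr2m gave 43 genes of 21938, of which 30 encode Mediator subunits and 13 encode subunits of Pol II or the factor that associates with it. Per the labels the study made 9 libraries of C127 cells: BioCAP and its input, 1 each, 3 of ATAC with 1 input, and 3 of newly made RNA. The single table used here was the NMI list of the BioCAP library, with 13491 intervals, and the remaining 8 libraries were not used here. BioCAP isolates DNA fragments on a CXXC zinc finger domain, which binds CpG dinucleotides that carry no methyl group, so that an NMI is a stretch of the genome where unmethylated CpGs are dense enough to be captured. The list came from 1 library of 1 cell line and gave positions without a score, so the values below carry no replicate error, the read depth is unknown and no p-value was computed. Where a gene is described as without an NMI, the list had none at its TSSs, and its methylation itself was not measured.

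Pol II transcribes the protein-coding genes of the nucleus. Mediator is a large multi-subunit coactivator that carries signals from DNA-bound transcription factors to Pol II at the promoter. Its head and middle modules contact the polymerase, the tail module is the main landing site of activators, Med14 is the scaffold that runs through the modules, and a detachable kinase module, built on Med12 and Med13 or their paralogues Med12l and Med13l, regulates the binding of the polymerase. Most genes of this kind are used in nearly every cell type, and promoters of such housekeeping genes commonly lie in CpG islands, which are typically free of methylation. All 43 genes taken by symbol fell into a known module of Mediator or a known class of Pol II subunit.

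An NMI overlapped at least 1 TSS in 42 of the 43 genes, whereas 47.5% of all protein-coding genes had one. All 13 Pol II genes and 29 of 30 Mediator genes had an NMI. The exception was Med12l, a paralogue of Med12 in the kinase module. None of the 42 genes had more than 1 NMI at its TSSs, against 3.91% of protein-coding genes with an NMI. The outermost TSS, the most 5′ start annotated for a gene, lay in the NMI in 40 of 43 genes, against 42.5% of all protein-coding genes. The members lay on 19 chromosomes, and both of those on X, Med12 and Med14, had an NMI, as did 257 of the 948 protein-coding genes on X (27.1%).

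The kinase module held both the gene without an NMI and the gene with the most CpG-dense NMI, and the sequence next to the start of its 4 genes is shown for that reason. Each line gives the 150 bp immediately before the outermost TSS, from the GRCm38 reference (equal to mm10 in coordinates), written 5′ to 3′ on the strand of the gene with CpG dinucleotides in capitals.
Med12 (chrX:101273880-101274029, plus strand): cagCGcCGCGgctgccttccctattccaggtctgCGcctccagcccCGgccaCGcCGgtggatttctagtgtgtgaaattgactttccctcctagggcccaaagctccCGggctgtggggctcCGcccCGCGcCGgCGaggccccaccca
Med12l (chr3:59005675-59005824, plus strand): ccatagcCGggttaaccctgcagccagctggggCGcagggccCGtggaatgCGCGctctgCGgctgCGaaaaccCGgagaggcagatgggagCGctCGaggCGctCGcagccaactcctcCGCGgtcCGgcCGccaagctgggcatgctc
Med13 (chr11:86357603-86357752, minus strand): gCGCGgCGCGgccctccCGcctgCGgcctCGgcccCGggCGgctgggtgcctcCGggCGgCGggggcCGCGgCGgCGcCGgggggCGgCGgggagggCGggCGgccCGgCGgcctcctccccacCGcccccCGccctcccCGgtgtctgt
Med13l (chr5:118560529-118560678, plus strand): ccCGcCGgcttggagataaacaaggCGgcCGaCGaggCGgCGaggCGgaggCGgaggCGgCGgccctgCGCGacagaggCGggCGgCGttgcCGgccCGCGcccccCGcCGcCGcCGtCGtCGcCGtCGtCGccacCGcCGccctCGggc
The stretch before Med12l held 16 CpGs in 150 bp, more than the 13 before Med12, which lay in an NMI, and fewer than the 26 before Med13 and the 31 before Med13l. All 4 stretches were GC-rich, with a GC content of 69.3% for Med12, 70.7% for Med12l, 90.0% for Med13 and 82.0% for Med13l. The stretch before Med12l also overlapped an exon of Gm43570, a non-coding gene on the opposite strand.

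Med13 and Med13l, which encode the subunits that join the kinase module to the rest of Mediator, had NMIs of 2430 bp (chromosome 11, 86356260 to 86358689) and 2298 bp (chromosome 5, 118559620 to 118561917). They were the second and the fourth widest of the 42. The NMI of Med13l was also the densest, with 277 CpGs or 12.1 CpG per 100 bp, while that of Med13 held 6.26 CpG per 100 bp. Med12, which activates the kinase Cdk8 through cyclin C, had an NMI of 694 bp (chromosome X, 101273780 to 101274473), one of the narrowest, with 7.64 CpG per 100 bp. The interquartile range of width over all protein-coding genes with an NMI was 921 to 1592 bp, with Med12 below it and Med13 and Med13l above it.

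Med12l had 4 annotated TSSs on chromosome 3 (59005825, 59006487, 59006978 and 59257062), and none lay in an NMI. In windows of 1000 bp centred on these TSSs the CpG density was 10.7, 11.1, 10.0 and 0.8 per 100 bp. The first 3 starts were therefore CpG-rich, and the value at the outermost TSS was the second highest of the 43 genes, below the 16.0 of Med13l and above the 10.6 of Med14. Among all protein-coding genes with at least this density at the outermost TSS, 899 of 1080 (83.2%) had an NMI in the list. The list is a single call of NMIs, so Med12l, like any other gene without one here, may have an NMI in another set. The nearest NMI lay 185457 bp upstream of the outermost TSS, was 319 bp wide and held no TSS (58820050 to 58820368). The next one downstream was 1494706 bp away, at Mbnl1, which encodes a splicing regulator (60500531 to 60501879, 1349 bp). The body of Med12l also contained TSSs of genes for G protein-coupled receptors, among them Gpr171, P2ry14, P2ry13 and P2ry12. These 4 had no NMI either, and their CpG density was low, between 0.6 and 1.4 per 100 bp at the outermost TSS. Whether Med12l is transcribed in these cells was not analysed here.

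**Figure D1:**
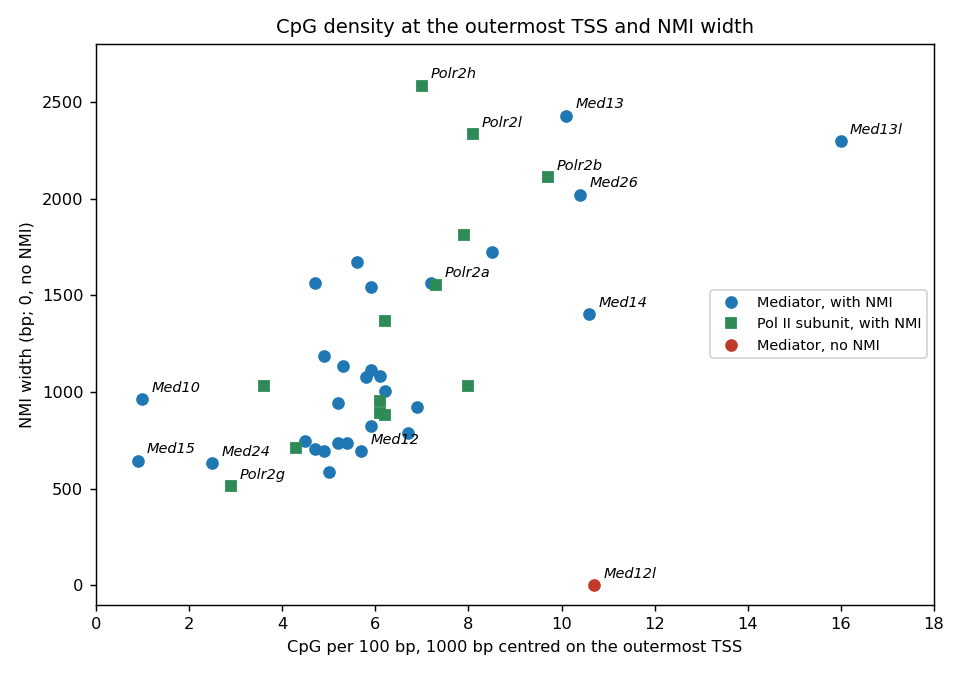
CpG density in the 1000 bp centred on the outermost TSS (horizontal axis, CpG per 100 bp) against NMI width (vertical axis, bp) for the 43 genes, with circles for Mediator and squares for Pol II. Med12l, in red at 0 bp because it had no NMI, sits at 10.7 CpG per 100 bp among the CpG-rich genes with wide NMIs, while Med10 and Med15 had an NMI although their outermost TSS lay outside it, in sequence with about 1 CpG per 100 bp.

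The share of protein-coding genes with an NMI rose with the CpG density at the outermost TSS, from 7.76% below 2 CpG per 100 bp and 32.1% between 2 and 4 to 71.7% between 4 and 6, 81.6% between 6 and 8, 83.8% between 8 and 10 and 83.9% from 10 upwards. Most Mediator and Pol II genes lay in the middle of this scale, with 17 genes between 4 and 6 and 12 between 6 and 8, and all 29 of these had an NMI. All 4 genes between 8 and 10 had one, as did 4 of the 5 from 10 upwards. At the low end, the 2 genes below 2 CpG per 100 bp and the 3 between 2 and 4 had an NMI too. The density is that of the outermost TSS, whereas the NMI may lie at any TSS of the gene. The 2 genes below 2 were Med10 and Med15, whose NMI held later TSSs, with 4.4 to 5.4 CpG per 100 bp, and not the outermost one. The 3 between 2 and 4 were Med24, Polr2g and Polr2k, with 2.5, 2.9 and 3.6 CpG per 100 bp.

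In width the NMIs of the 42 genes lay within the range of other genes, with a shift towards narrow ones. Their quartiles were 756.75 and 1563.5 bp, beside 921 and 1592 bp over all protein-coding genes with an NMI. Their median was 1032 bp with a range of 512 to 2585 bp, beside a median of 1210 bp over the 10425 protein-coding genes with an NMI. The 95% interval of the members' median, taken from their ordered values, was 892 to 1369 bp and included that value. The interval treats the genes as independent draws and is not an error of measurement, so it is given as a description. A width above 2000 bp was found in 6 of 42 genes, against 11.1% of protein-coding genes with an NMI. The CpG density inside the NMIs had a median of 6.32 per 100 bp (3.31 to 12.1), beside 6.86 for all protein-coding genes with an NMI. The GC content had a median of 58.4% beside 60.6%, and the observed/expected ratio of CpG had a median of 0.754 beside 0.764.

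**Figure D2:**
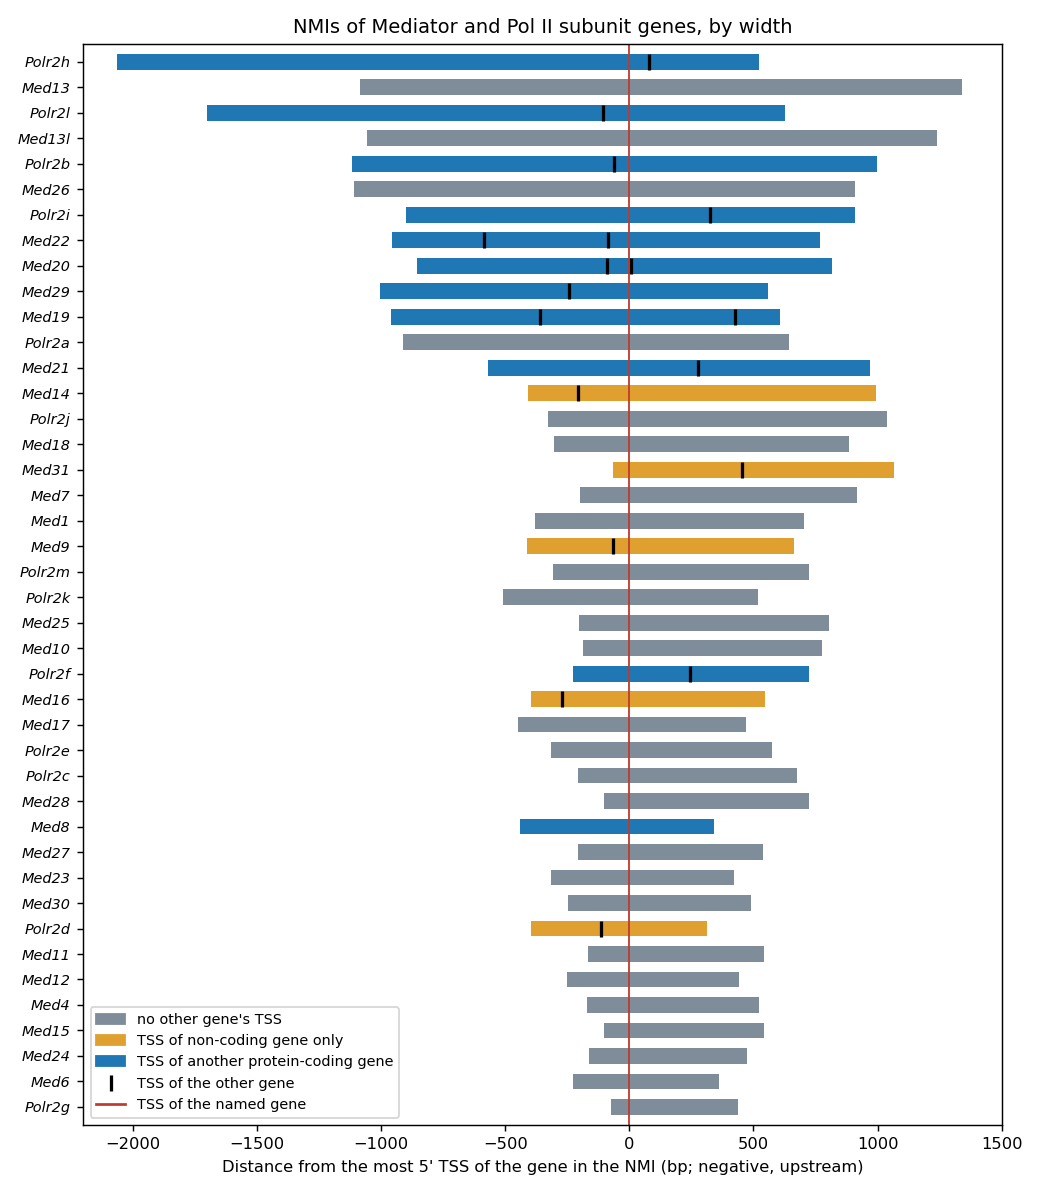
The NMI of each of the 42 genes (bars, widest at the top), placed by distance in bp from the most 5′ TSS of the gene inside the NMI (red line), with negative values upstream. Bars are blue where another protein-coding gene started in the NMI, orange where only a non-coding gene did and grey where no other gene did, and black ticks mark the other gene's TSS (not drawn for Med8). Blue bars gather among the wide NMIs and reach far upstream, whereas most grey bars extend mainly into the gene.

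Among the head genes, all 7 had an NMI, with a median width of 921 bp. Med22 and Med20, which encode small head subunits, had the widest, at 1726 bp (chromosome 2, 26909908 to 26911633) and 1673 bp (chromosome 17, 47610726 to 47612398). Med17, the central architectural subunit of the head, had an NMI of 921 bp, and Med18, the partner of Med20, one of 1189 bp. The narrowest was that of Med6, at 588 bp (chromosome 12, 81594647 to 81595234). Those of Med8 and Med11 measured 786 and 708 bp.

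All 9 middle genes had an NMI, with a median of 1116 bp. Med26, which links Mediator to Pol II and to elongation factors, had the widest, at 2021 bp (chromosome 8, 72547360 to 72549380, 7.97 CpG per 100 bp). It was followed by Med19 at 1566 bp, Med21 at 1542 bp and Med31 at 1136 bp. The NMI of Med1, the main contact of nuclear receptors, was 1083 bp, and those of Med7, Med9, Med10 and Med4 were 1116, 1077, 964 and 694 bp. Med14, the scaffold, had an NMI of 1405 bp on chromosome X (12761078 to 12762482) that was CpG-dense, with 8.90 CpG per 100 bp.

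The 9 genes listed for the tail and its border with the head all had an NMI as well, but most were narrow, with a median of 747 bp. Med29 was the widest at 1566 bp, in an NMI shared with another gene. Med25 and Med16 followed at 1006 and 945 bp. Those of Med28, Med27, Med23 and Med30 lay between 736 and 827 bp. The narrowest were those of Med15 at 646 bp (chromosome 16, 17722404 to 17723049) and Med24 at 634 bp (chromosome 11, 98728963 to 98729596), both subunits that take part in the response to activators. The NMI of Med24 was the least CpG-dense of the 42, with 21 CpGs or 3.31 per 100 bp and a GC content of 46.1%. Med24 was also the only member with a further NMI inside the gene that touched no TSS (98708416 to 98709826, 1411 bp), which overlapped exons of Med24 at 20314 bp from its outermost TSS.

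Among the 7 subunits particular to Pol II, the median width was 1369 bp. Polr2b, the second largest subunit, had the widest NMI at 2113 bp (chromosome 5, 77309031 to 77311143, 8.47 CpG per 100 bp). Polr2i, a small subunit involved in the fidelity of transcription, had one of 1811 bp (chromosome 7, 30231047 to 30232857). Polr2a, the largest subunit and carrier of the C-terminal heptad repeats, had one of 1556 bp (chromosome 11, 69757993 to 69759548, 6.17 CpG per 100 bp). Polr2j and Polr2c, which belong to the assembly platform, had NMIs of 1369 and 883 bp. The stalk of the polymerase is formed by the products of Polr2d and Polr2g, and both genes had narrow NMIs. That of Polr2d measured 710 bp, and that of Polr2g was the narrowest of the set at 512 bp (chromosome 19, 8798140 to 8798651), with 24 CpGs and a width at percentile 3.30 of protein-coding genes with an NMI. The 5 subunits that Pol II shares with Pol I and Pol III had a median of 1031 bp and spanned a wide range. Polr2h had the widest NMI of all members at 2585 bp (chromosome 16, 20715602 to 20718186), and Polr2l one of 2333 bp (chromosome 7, 141474503 to 141476835), whereas Polr2k, Polr2f and Polr2e had 1031, 952 and 892 bp. Polr2m, which binds Pol II and makes it dependent on Mediator, had an NMI of 1033 bp.

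The stretches before the largest polymerase subunit and before the members with the narrowest and the least CpG-dense NMI show how different these starts were. They are written as above, 150 bp to the outermost TSS with CpG in capitals.
Polr2a (chr11:69758638-69758787, minus strand): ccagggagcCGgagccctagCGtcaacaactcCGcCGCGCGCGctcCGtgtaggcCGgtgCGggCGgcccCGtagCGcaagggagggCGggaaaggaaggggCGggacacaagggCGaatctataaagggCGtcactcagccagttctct
Polr2g (chr19:8798578-8798727, minus strand): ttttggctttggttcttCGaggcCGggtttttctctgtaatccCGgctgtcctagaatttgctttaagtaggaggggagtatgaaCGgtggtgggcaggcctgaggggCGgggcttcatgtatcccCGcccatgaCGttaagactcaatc
Med24 (chr11:98729436-98729585, minus strand): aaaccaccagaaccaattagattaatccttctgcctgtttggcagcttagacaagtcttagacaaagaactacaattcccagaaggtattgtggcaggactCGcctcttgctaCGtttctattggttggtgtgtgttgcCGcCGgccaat
The counts were 17 CpGs for Polr2a, 7 for Polr2g and 4 for Med24. The Polr2a stretch held the letters TATAAA at 24 bp from the TSS and GGGCGG at 3 places. That of Polr2g held GGGCGG at 2 places, once on each strand. That of Med24 had none of these and held CCAAT at 3 places, of which the last adjoined the TSS.

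A total of 217 TSSs were annotated for the 43 genes, and 143 of them (65.9%) lay in an NMI, beside 38.4% of the 93513 TSSs of all protein-coding genes. All TSSs lay in the NMI in 16 of the 42 genes, against 28.1% of protein-coding genes with an NMI. The CpG density around the 143 TSSs in NMIs had a median of 6.0 per 100 bp (2.5 to 16.0). The 70 TSSs outside, which belonged to 26 of the genes with an NMI, had a median of 1.4 per 100 bp (0.1 to 4.6). A median distance of 8702 bp separated these 70 TSSs from the nearest NMI, and 11 were within 1000 bp of one. Of the 143 TSSs in NMIs, 98 began protein-coding transcripts and 77 began transcripts in the basic set of GENCODE, which holds the full-length models. Such shares were not counted over all protein-coding genes. Of the 70 outside, 18 began protein-coding transcripts and 2 began basic ones. These 2 were a start of Med14 at 45915 bp into the gene, with 0.5 CpG per 100 bp, and a start of Polr2m at 977 bp into the gene, with 1.3 CpG per 100 bp.

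Med10 and Med15 were the 2 genes with an NMI whose outermost TSS lay outside it. In Med10 the first 2 of 6 TSSs, with 1.0 CpG per 100 bp each, lay 7259 and 7237 bp upstream of the NMI. The NMI (chromosome 13, 69809654 to 69810617) held the third to the fifth TSS, with 5.2 to 5.4 CpG per 100 bp. In Med15 the outermost of 15 TSSs, with 0.9 CpG per 100 bp, lay 9842 bp upstream of the NMI, and 11 TSSs with 4.4 to 4.8 CpG per 100 bp lay in it. In both genes the transcripts from the outermost TSS were protein-coding models outside the basic set, and basic transcripts started in the NMI.

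**Figure D3:**
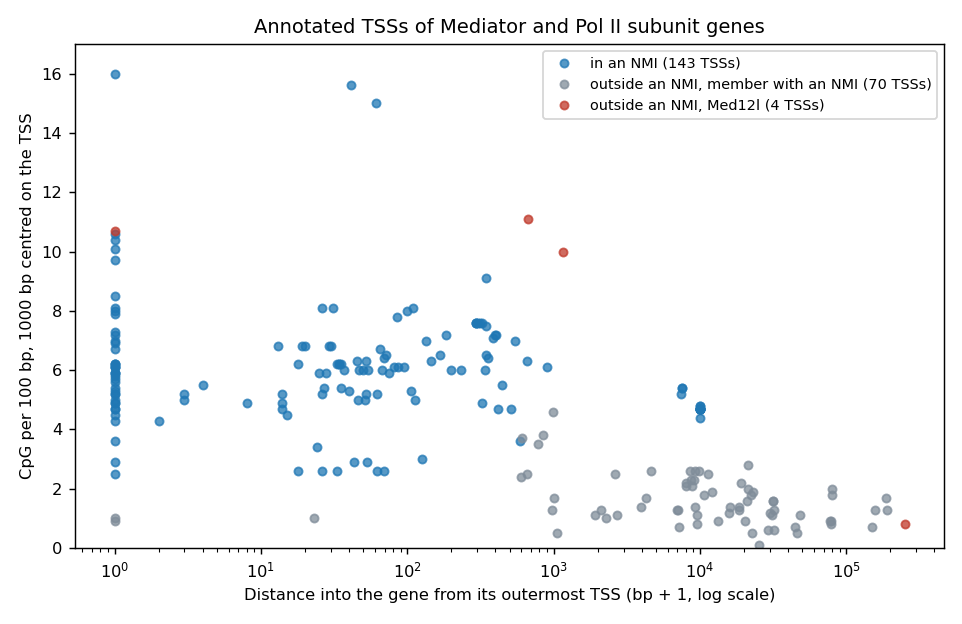
CpG density in the 1000 bp centred on each of the 217 TSSs (vertical axis, CpG per 100 bp) against the distance from the gene's outermost TSS (horizontal axis, bp + 1, log scale). TSSs in an NMI (blue) lie at 2.5 CpG per 100 bp or more, including those of Med10 and Med15 near 10000 bp, TSSs outside it (grey) at 4.6 or less, and the first 3 of the 4 TSSs of Med12l (red) lie at 10.0 or more.

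The NMI held the TSS of another gene of any type in 16 of the 42 genes, against 35.4% of protein-coding genes with an NMI. Another protein-coding gene started in it in 11 of 42, against 23.3%, and a divergent protein-coding gene, one that runs away from the member on the opposite strand, in 7 of 42, against 13.6%. In all, 19 pairs of a member and another gene shared an NMI, 13 with a protein-coding and 6 with a non-coding gene. Of these pairs 12 were divergent, 6 were on opposite strands with overlapping starts and 1 was on the same strand. The counts of members, 16, 11 and 7 of 42, lay near the shares among all protein-coding genes with an NMI. The pairs and their orientations were not counted over all protein-coding genes.

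The DNA between the starts is shown for 5 of the divergent protein-coding pairs, with starts within 250 bp of each other, since both genes start at its ends. Each line runs from the base after the TSS of the partner to the base before the TSS of the member, on the strand of the member, with CpG in capitals.
Polr2b and Noa1 (chr5:77310085-77310146, plus strand): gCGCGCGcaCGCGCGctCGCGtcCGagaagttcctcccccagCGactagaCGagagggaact
Med22 and Rpl7a (chr2:26910678-26910763, minus strand): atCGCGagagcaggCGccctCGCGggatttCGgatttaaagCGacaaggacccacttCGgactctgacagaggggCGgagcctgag
Med20 and Bysl (chr17:47611493-47611581, plus strand): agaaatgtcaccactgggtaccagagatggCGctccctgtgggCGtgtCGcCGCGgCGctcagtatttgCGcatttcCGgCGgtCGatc
Polr2l and Tspan4 (chr7:141475133-141475239, minus strand): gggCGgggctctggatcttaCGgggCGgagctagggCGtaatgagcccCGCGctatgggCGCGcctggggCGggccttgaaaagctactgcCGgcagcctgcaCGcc
Med29 and Paf1 (chr7:28392709-28392950, minus strand): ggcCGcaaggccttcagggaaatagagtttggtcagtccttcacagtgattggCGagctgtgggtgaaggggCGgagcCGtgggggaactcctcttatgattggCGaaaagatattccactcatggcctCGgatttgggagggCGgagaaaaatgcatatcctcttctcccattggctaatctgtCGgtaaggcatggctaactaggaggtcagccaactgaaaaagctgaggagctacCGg
The starts of Polr2b and Noa1, which encodes a mitochondrial GTPase, were 63 bp apart, and the stretch between them held 11 CpGs. Med22 started 87 bp from Rpl7a, a ribosomal protein gene, with 9 CpGs between the starts, and a small nucleolar RNA gene, Gm23969, began in the same NMI. Med20 started 90 bp from Bysl, a gene of ribosome assembly, with 10 CpGs between. Polr2l and Tspan4, which encodes a tetraspanin, were 108 bp apart, with 11 CpGs and GGGCGG at 3 places. Med29 was paired with Paf1, a gene of the Pol II-associated elongation complex of that name, and the starts were 243 bp apart with 9 CpGs, GGGCGG at 2 places and CCAAT at 3, all of the latter on the opposite strand. In the pair of Med19 and Gm28635 the starts were 361 bp apart, and a TSS of Tmx2 lay in the same NMI 426 bp inside Med19.

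The other protein-coding neighbours began inside the member on the opposite strand. They were Clcn2, a chloride channel gene, at 81 bp from the start of Polr2h, 1700088E04Rik at 244 bp from that of Polr2f, Tm7sf3 at 277 bp from that of Med21, and Tbcb, a tubulin-folding cofactor, at 324 bp from that of Polr2i. Upstream of Polr2h the NMI therefore ran for 2063 bp into Clcn2. Gm20517 started on the same strand 7 bp after Med20. The members that shared their NMI with a non-coding gene alone were Med9 (Med9os, 64 bp), Polr2d (Gm26533, 114 bp), Med14 (Gm14634, 205 bp), Med16 (the small nuclear RNA gene Gm24019, 272 bp) and Med31 (4930563E22Rik, 454 bp).

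NMIs shared with another gene had the larger median width, a difference given without a test. The 16 NMIs with another gene's TSS had a median width of 1554 bp (710 to 2585), and the 26 with none had 906.5 bp (512 to 2430). The ranges overlapped widely, and Med13, Med13l and Med26 had NMIs above 2000 bp without another gene. The 2 sets differed more on the upstream side, where the median reach from the most 5′ TSS of the member in the NMI was 713 bp in shared and 248 bp in unshared NMIs, than on the side of the gene, where it was 694 and 609.5 bp. In the 7 divergent protein-coding pairs the upstream reach was 960 bp. Over all protein-coding genes the difference had the same direction, with 1401.5 bp in 3690 shared and 1116 bp in 6735 unshared NMIs. There too the sets differed more upstream, with medians of 579 and 329 bp, than on the gene side, with 757 and 743 bp. The divergent protein-coding NMIs over all genes had a median upstream reach of 774 bp. The NMI reached farther into the gene than upstream in 31 of 42 genes, against 78.6% of protein-coding genes with an NMI. This was so in 24 of the 26 unshared NMIs, beside 5865 of 6735 unshared NMIs over all protein-coding genes. It was so in 0 of the 7 divergent protein-coding pairs, beside 517 of 1413 divergent protein-coding NMIs in the genome. A wider NMI holds more TSSs by its size alone. An NMI shared with a divergent gene must also reach upstream at least to the TSS of that gene. The part of either in the differences was not tested.

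Short promoter motifs were searched on both strands in the 300 bp from 250 bp before to 50 bp after the outermost TSS, as fixed letters and with no mismatch. The 8 motifs did not contain one another. The SP/KLF motif, GGGCGG, was found in 28 of 43 members (65.1%), in 43.0% of all protein-coding genes and in 64.8% of those with an NMI. The CCAAT motif, CCAAT, was found in 18 members (41.9%), beside 39.0% of all protein-coding genes and 39.3% of those with an NMI. The ETS motif, CCGGAAG, was found in 13 members (30.2%), beside 10.8% and 19.1%. These 13 were Med4, Med6, Med8, Med14, Med17, Med18, Med19, Med30, Polr2c, Polr2d, Polr2j, Polr2k and Polr2m. The YY1 motif, AAGATGG, was found in 6 members (14.0%, beside 6.22% and 7.42%), and the NRF1 motif, GCGCATGC, in 3 (6.98%, beside 3.71% and 5.97%). The E-box, CACGTG, was found in 3 members (6.98%, beside 7.75% and 10.6%) and the CRE motif, TGACGTCA, in 1, Med21 (2.33%, beside 2.43% and 3.71%). The TATA motif, TATAAA, was found in Med7, Med16, Med28, Polr2a and Polr2c (11.6%, beside 12.6% and 6.57%). Med10, Med11, Med12l, Med15 and Polr2f held none of the 8, and for Med10 and Med15 the window lay outside the NMI. These matches describe letters and are not a measurement of binding.

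Other genes of the transcription machinery were taken in 10 lists of 100 genes, to place Mediator and Pol II among their partners. An NMI was found at 94 of the 100. The 3 partners of Med12 and Med13 in the kinase module, Cdk19, Ccnc and Cdk8, all had one (1837, 1527 and 1274 bp), so that Med12l was the single gene of the 7 in that module without. All genes of TFIIB, TFIIE, TFIIF and TFIIH (1, 2, 2 and 10 genes), which position and open the promoter for Pol II, had an NMI, as did all 19 genes of Pol I and Pol III and all 14 of the Integrator complex. The TFIIA list, which included the paralogue Gtf2a1l, had NMIs at 2 of 3 genes. The TFIID list, which included the paralogues Tbpl1, Tbpl2, Taf4b, Taf7l and Taf9b, had them at 16 of 19. The elongation factors had them at 25 of 27. The genes without were Gtf2a1l, Taf7l, Taf9b, Tbpl2, Ell3 and Tcea3, of which Taf7l and Taf9b lie on X. Their CpG density at the outermost TSS was 3.1, 4.7, 4.7, 0.7, 1.3 and 5.6 per 100 bp, in each case below the 10.7 of Med12l.

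**Figure D4:**
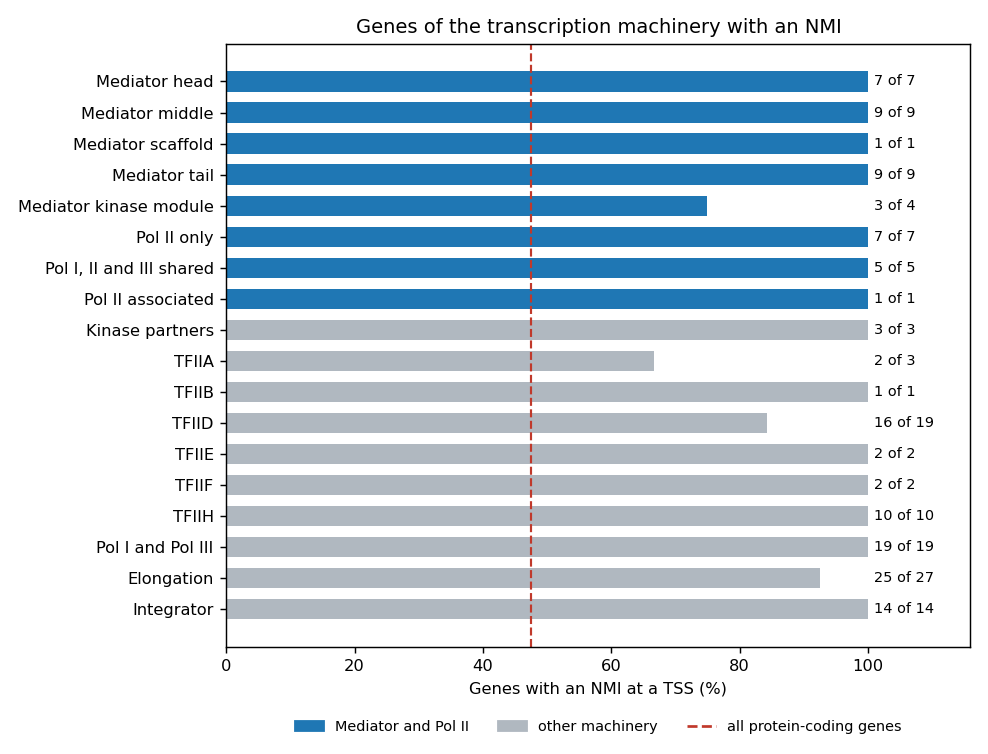
Share of genes with an NMI at a TSS (horizontal axis, %) for the modules of Mediator and classes of Pol II subunit (blue) and for other lists of the machinery (grey), with the number of genes at the right. The dashed line marks the 47.5% of all protein-coding genes, and all bars end to its right, with the kinase module of Mediator (3 of 4) and TFIIA (2 of 3) the lowest.

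The median NMI width over the 94 genes of the lists was 1212 bp. The widest was that of Cd3eap, a Pol I subunit gene, at 3420 bp (chromosome 7, 19358809 to 19362228), which exceeded all Mediator and Pol II genes, as did those of Hexim1, an inhibitor of the elongation kinase P-TEFb (3041 bp), and Gtf2a1 (2982 bp). The widest in the other lists were Ints6 (2532 bp), Taf4 (2307 bp), Gtf2h1 (1762 bp), Gtf2b (1332 bp), Gtf2e2 (1273 bp) and Gtf2f1 (1190 bp).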

How the data were processed

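Per the labels, 1 BioCAP library was made from C127 cells. From the study's methods and the submitters' processing notes, the authors used Bowtie2 to place reads on mm10, SAMtools to drop duplicates and MACS2 to find NMIs. Tool versions and any use of the input as a control were not given in the sources used here. The deposited list held the chromosome, start and end of 13491 intervals (13489 on chromosomes 1 to 19, X and Y), with starts counted from 0 that are given here from 1. The study's methods state a cutoff on the false discovery rate for the NMI call. Such a cutoff and the loss of reads without a unique position leave weakly captured or duplicated regions out of such a list.

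TSSs were the 5′ ends of all transcripts in GENCODE M21 on GRCm38. A gene had an NMI when 1 bp or more of any TSS position overlapped one. Width, reach, shared TSSs, GC and CpG content were computed from the list, the annotation and the RefSeq release of the GRCm38 sequence with Python 3.11.15, NumPy 2.4.6 and SciPy 1.17.1, and drawn with matplotlib 3.10.9. The overlap step was tested on simulated data. Counts and medians of the members were set beside those of all protein-coding genes, without a test, because there was 1 library and genes are not replicates. Members, lists and motifs were chosen with earlier results of these data known.

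Genes were named by rule. Named with values were members without an NMI, with more than 1, or with the outermost TSS outside, the 8 widest and 5 narrowest, those sharing an NMI with a protein-coding gene, those on X, Polr2a, Med14 and the kinase-module paralogues. From the comparison lists, genes without an NMI and the widest of each list were named. The values of the remaining members complete the account, and results for a few neighbouring genes are not reported here. Alternatives were other distances to the TSS, the outermost TSS, protein-coding or basic transcripts, no narrow NMIs, unshared NMIs and a fixed window for CpG density.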

Additional observations from a re-analysis of the deposited data

How the results depend on the processing

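Of 16 alternative settings over 5 results, 15 left counts within 1.5 times of the value reported, or medians within their 95% interval among genes. The exception was the median CpG density, which was 5.90 per 100 bp in the 1000 bp centred on the outermost TSS and 6.32 in the NMI itself. That window also counts sequence outside the NMI, and it includes Med12l, Med10 and Med15. The number of genes with an NMI was 42 with TSSs within 250 or 1000 bp of an NMI, with TSSs of protein-coding transcripts and with those of basic transcripts. It was 40 with the outermost TSS, without Med10 and Med15. It was 41 without NMIs at or under the lower quartile of width (572.5 bp), without Polr2g. The share of all protein-coding genes with an NMI was 49.0% within 1000 bp, 42.5% with the outermost TSS and 45.3% without the narrow NMIs. The members' median width ran from 906.5 bp in unshared NMIs to 1055 bp in NMIs at the outermost TSS. Sharing was 11 with protein-coding genes alone and 16 under the other settings, and the lists gave 91 to 94 of 100 genes. The limit of 1.5 times was wide for such counts. A fall in sharing from 16 to 11 stayed within it, and 42 members or 94 list genes could not have risen that far. Depth is unknown, so a missing NMI cannot be told apart from a weakly captured one. No paired analysis was possible because the list came from 1 library and no result came from a test.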
